A study of Homo sapiens with 4 samples.

Results

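The genes described here are the zinc finger genes with ZNF symbols at the end of the long arm of chromosome 19. They were taken as all genes of the deposited table with a ZNF symbol whose first exon entry lies on chromosome 19 at or beyond 58.5 Mb in CHM13v2.0, the telomere-to-telomere assembly that the counts use. The rule gave 67 of the 28775 genes in the table. It used names and positions only, but was chosen with earlier results of these data known. The share of called genes is thus not that of a group picked blind to the values. The last ZNF gene outside the limit was ZNF331 and the first inside it ZNF628. The 67 genes span 3.01 Mb.

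RNA-seq was compared between 2 MORC2 KO samples and 2 WT samples of HEK293T, a transformed human embryonic kidney line, to ask what the cells express without MORC2, an ATPase that acts in gene silencing. MORC2 KO 1 and MORC2 KO 2 were made by electroporation of Cas9 protein with gRNA 1 or gRNA 2, and each is a bulk population of edited cells and not a clone, so that unedited cells and cells with different edits can be present. WT 1 and WT 2 were HEK293T cells labelled wild type, and apart from the editing no treatment is described for either group. The study's methods describe no mock electroporation of WT cells. Effects of electroporation, Cas9 cutting and the later passages therefore cannot be told apart from those of MORC2 loss. RNA with a poly-A tail was sequenced, and the counts of read pairs on genes summed to 59803625 and 64312514 in the MORC2 KO samples and to 60331708 and 53970043 in the WT samples. Counts are given as deposited, and CPM are counts scaled to library size and, by TMM, to library composition. In a bulk sample, fewer cells that express a gene and less RNA per cell cannot be told apart. The study's methods call the WT samples independent replicates and the KO lines independent. The p-values set the difference between genotypes against the spread between samples within a genotype. The estimate of that spread for a gene borrows from all tested genes.

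C2H2 zinc finger proteins bind DNA through arrays of fingers, each of which contacts a few bases. Many of them carry a KRAB domain, which recruits the corepressor TRIM28 (KAP1) and through it the histone methyltransferase SETDB1 and HP1 proteins, and many KRAB zinc finger proteins silence transposable elements. The genes arose by tandem duplication and lie in clusters, of which the largest in the human genome are on chromosome 19, and the gene bodies of such clusters are themselves known to carry H3K9me3.

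Of the 67 genes, 59 code for a protein, 7 are long non-coding RNA genes and 1 (ZNF542P) is a transcribed pseudogene. In the longest coding sequence of GENCODE 29, 44 of the proteins held the core of the KRAB A box (with up to 1 mismatch) and 15 did not. The 44 KRAB proteins had a median of 12 C2H2 fingers, from 5 in ZNF274 to 23 in ZNF814, and the 15 others had a median of 8. The genes fell into 4 blocks with at least 200 kb between them. The first block, of 7 genes from ZNF628 to ZNF581, and the second, ZNF787 and ZNF444, held no KRAB gene, the third held 11 genes from ZNF542P to ZNF835, and the fourth held 47 genes from ZNF264 to ZNF446, closest to the telomere.

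The genes that passed the test were ZNF772, ZNF550 and ZNF551, all in the fourth block. The 250 bases before their annotated starts are shown because the 8 bases CTACATTA, in capitals, recur in them. ZNF17 is shown beside them as a gene that holds the same 8 bases and whose counts in MORC2 KO and WT overlapped, and it was chosen for that after its values were seen. The sequences are those of RefSeq on GRCh38.p14, 5′ to 3′ along each gene, and stand at chr19:57477567-57477816 (minus strand) for ZNF772, chr19:57559864-57560113 (minus strand) for ZNF550, chr19:57681727-57681976 (plus strand) for ZNF551 and chr19:57410911-57411160 (plus strand) for ZNF17.
ZNF772: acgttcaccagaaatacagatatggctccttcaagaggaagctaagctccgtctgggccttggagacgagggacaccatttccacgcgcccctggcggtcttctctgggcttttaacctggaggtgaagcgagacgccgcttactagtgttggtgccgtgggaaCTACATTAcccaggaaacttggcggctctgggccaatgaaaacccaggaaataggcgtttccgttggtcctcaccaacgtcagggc
ZNF550: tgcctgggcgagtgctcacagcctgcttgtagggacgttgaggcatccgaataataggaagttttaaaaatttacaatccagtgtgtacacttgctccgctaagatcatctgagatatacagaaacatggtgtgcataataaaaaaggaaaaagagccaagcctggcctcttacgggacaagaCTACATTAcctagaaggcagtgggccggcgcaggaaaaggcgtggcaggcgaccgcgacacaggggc
ZNF551: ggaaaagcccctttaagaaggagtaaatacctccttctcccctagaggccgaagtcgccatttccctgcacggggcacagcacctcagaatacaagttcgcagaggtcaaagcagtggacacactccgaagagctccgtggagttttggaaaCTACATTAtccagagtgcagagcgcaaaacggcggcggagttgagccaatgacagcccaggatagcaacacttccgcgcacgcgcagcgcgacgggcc
ZNF17: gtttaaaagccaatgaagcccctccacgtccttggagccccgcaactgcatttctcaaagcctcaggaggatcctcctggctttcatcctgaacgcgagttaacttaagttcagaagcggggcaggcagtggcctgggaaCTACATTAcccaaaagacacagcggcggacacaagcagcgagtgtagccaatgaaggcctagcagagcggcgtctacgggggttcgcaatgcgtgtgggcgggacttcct

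CTACATTA begins 86, 67, 98 and 110 bases before the start in these 4 promoters. Of the 67 genes, 61 had a RefSeq promoter window (from 250 bases before to 50 after the start), in 68 windows. The motif, searched on both strands, was in 15 of the 68 windows (22.1%) against 0.441% of all 35116 windows of the genome, 1 of 230 windows of other ZNF genes on chromosome 19 and 0 of 330 windows of ZNF genes on other chromosomes. In 14 of the 15 genes it ran along the gene, between 67 and 145 bases before the start, and in ZNF132 it ran against the gene. These 8 letters were chosen after the promoters had been read, and genes that arose by duplication share sequence, so the windows are not independent. The motif CCGGAAGT, which is the core bound by ETS factors, was in 28 of the 68 windows (41.2%) against 4.14% of all windows, and GGGCGG, the core of a GC box, was in 69.1% against 45.0%, with 62.6% for other ZNF genes on chromosome 19 and 57.0% for ZNF genes on other chromosomes. For CCGGAAGT these shares were 10.4% and 11.8%. TATAAA was in 1 window (1.47% against 11.5% of all, 3.48% of other ZNF windows on chromosome 19 and 5.76% of those elsewhere). TGACGTCA was in 4 windows (5.88% against 1.85% of all, 3.91% of other ZNF windows on chromosome 19 and 3.33% of those elsewhere), and the palindromic NRF1 motif and the core of the YY1 motif were in none of these windows, against 1.24% and 1.2% of all windows, 4.35% and 1.74% of those of other ZNF genes on chromosome 19 and 3.03% and 1.21% of those of ZNF genes elsewhere. CG pairs were frequent, with a median of 24 in a window of 300 bases against 14 over all windows, 20 for other ZNF genes on chromosome 19 and 23 for ZNF genes elsewhere. A match of letters is a description of sequence, and binding was not measured here.

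MORC2 itself was counted 3064 and 3637 times in the KO samples and 5131 and 4669 times in WT, which is 53.1 ± 2.69 CPM (SD, n = 2) and 87.0 ± 1.06 CPM (SD, n = 2). RNA from the edited gene was thus at 61.1% of WT, although MORC2-AS1 on the other strand covers 23.3% of its exonic bases. The study assessed the knockout by western blot of the protein. RNA counts do not give the amount of protein, which was not measured here. The line markers LIN28B, PAX2, NEFM, VIM and KRT18 were all above 1 CPM in every sample, with summed levels of 689 and 654 CPM in MORC2 KO and 654 and 681 CPM in WT, of which VIM made up most. NEFM, a neurofilament gene, was at 8.21 and 8.85 CPM in MORC2 KO and 6.57 and 5.99 CPM in WT, without overlap (log2 fold change 0.44, adjusted p = 0.118 in edgeR), and its part in any other result was not tested. None of 6 markers of other cell types (PTPRC, ALB, COL1A2, HBB, PECAM1 and DES) reached 1 CPM in any sample. COL1A2 was at 0 in all 4 samples, and the highest value of any of the 6 was 0.212 CPM.

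ZNF772, ZNF550 and ZNF551 were higher in MORC2 KO, and no gene of the group was called lower. With edgeR's quasi-likelihood test and Benjamini-Hochberg adjustment over the 16675 genes tested, 103 genes were called (0.618%), 98 higher (0.588%) and 5 lower (0.03%), and 3 of the 62 tested ZNF genes of the chromosome end were among the 98. ZNF772 (Entrez identifier 400720) had 2098 counts in MORC2 KO 1, 2399 in MORC2 KO 2, 1289 in WT 1 and 1054 in WT 2. Both MORC2 KO samples lay above both WT samples, at 35.7 ± 0.863 CPM (SD, n = 2) against 20.7 ± 1.31 CPM (SD, n = 2), which was 1.72-fold. Its log2 fold change (log2FC) was 0.78 with a standard error (SE) of 0.07 (adjusted p = 1.44e-04 in edgeR), and only 7 of the tested genes had a smaller p. The gene lies on the minus strand of chromosome 19 of CHM13v2.0 from 60566631 to 60574608, has 5 exons and codes for a KRAB protein with 10 fingers.

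ZNF550 (Entrez identifier 162972) had 1534 and 1710 counts in MORC2 KO and 1167 and 1034 in WT. The levels were 25.8 ± 0.160 CPM (SD, n = 2) and 19.5 ± 0.131 CPM (SD, n = 2), so that the replicates of a genotype were much closer to each other than the genotypes were. The log2FC was 0.40 (SE 0.07, adjusted p = 0.0165 in edgeR). ZNF550 lies on the minus strand from 60638766 to 60656791 and codes for a KRAB protein with 8 fingers. ZNF551 (Entrez identifier 90233) had 1768 and 2043 counts in MORC2 KO and 1282 and 1275 in WT, which were 30.2 ± 0.956 CPM (SD, n = 2) against 22.7 ± 1.70 CPM (SD, n = 2). The samples did not overlap, and the WT samples were further apart than in ZNF550. Its log2FC was 0.41 (SE 0.07, adjusted p = 0.0222 in edgeR), and it lies on the plus strand from 60778907 to 60787580 and codes for a KRAB protein with 14 fingers.

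The number of calls depended on single libraries. Without WT 1 only ZNF772 was called among the members, in a fit that called 149 of all 17062 genes tested higher, while the adjusted p in edgeR was 0.0572 for ZNF550 and 0.171 for ZNF551. Without WT 2, where 88 of 17157 genes were called higher, ZNF772 and ZNF551 were called and ZNF550 had an adjusted p of 0.101 in edgeR. Without MORC2 KO 1 the number rose to 21, in a fit that called 1397 of all 17129 genes tested higher. Without MORC2 KO 2 it was 7, with 142 of 16937 genes called higher in all. The log2FC of ZNF772 stayed between 0.72 and 0.85 in these 4 fits, that of ZNF550 between 0.39 and 0.41 and that of ZNF551 between 0.34 and 0.49. Each of these fits leaves 1 sample in a genotype, which is then assumed to vary like the others.

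**Figure D1:**
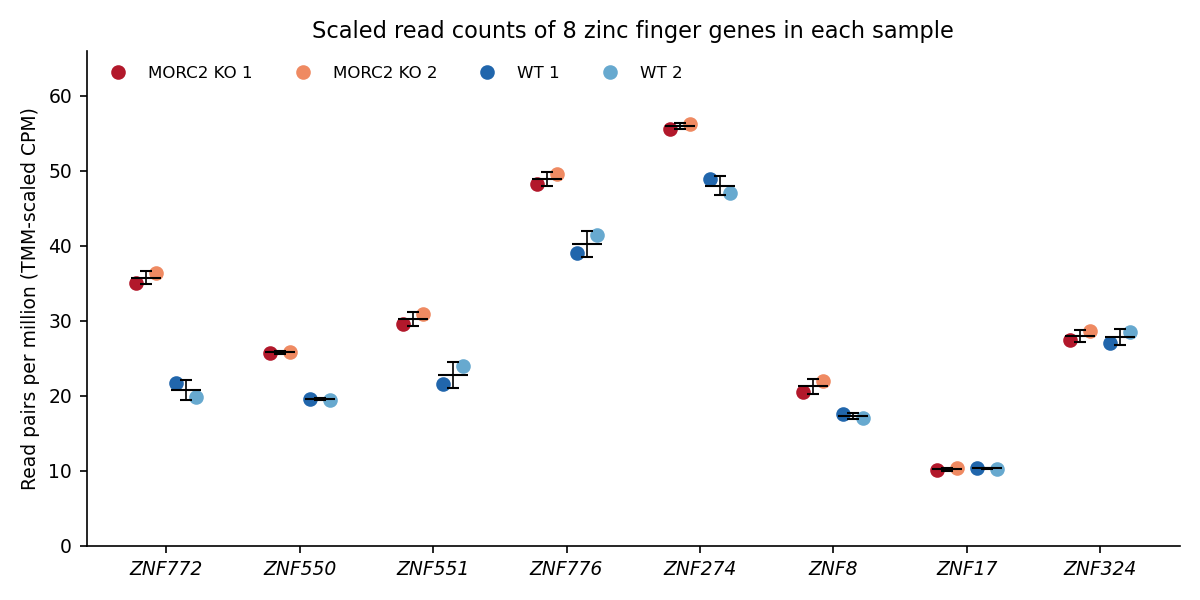
TMM-scaled CPM (vertical axis, from 0) of 8 zinc finger genes in each of the 4 samples, with the mean (bar) and SD (whiskers, n = 2) of each genotype. The MORC2 KO points of ZNF772 lie at 35.1 and 36.3 CPM against 21.7 and 19.8 in WT, those of ZNF776, ZNF274 and ZNF8 lie above WT by a smaller factor, and those of ZNF17 and ZNF324 overlap with WT.

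The 3 called genes stand among 10 tested ZNF genes in a stretch of 221 kb, from the first base of ZNF772 to the last base of ZNF551, whose ends were set by the called genes. The other 7, in order, were ZNF419, ZNF773, ZNF549, ZNF416, ZNF530, ZNF134 and ZNF211. Their log2FC values lay between 0.12 in ZNF416 and 0.34 in ZNF773, and in all but ZNF416 both MORC2 KO samples were above both WT samples. Over all tested genes, 24.1% had this order and 0.588% were called higher. None of the 7 passed the adjusted threshold, and the smallest adjusted p among them was 0.147 in ZNF773 (edgeR). ZNF773 had 809 and 1010 counts in MORC2 KO and 678 and 607 in WT. ZNF549 and ZNF550 lie next to each other on opposite strands, and 6.16% of the 65-base stretches of the ZNF549 transcript also occur in ZNF550, so that a small part of their reads could be counted at either gene. ZNF134 is the only member of the stretch without a KRAB core, and its log2FC was 0.23 (SE 0.06, adjusted p = 0.155 in edgeR) with 2043 and 2186 counts in the KO samples against 1722 and 1506 in WT. Summed over the 10 genes the level was 219 and 221 CPM in MORC2 KO and 170 and 171 CPM in WT.

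Beyond the called genes, most of the group lay slightly higher in MORC2 KO. Of the 62 tested genes, 54 had a positive log2FC (87.1%, against 51.5% of all tested genes), and the median was 0.19 against 0.01 for all tested genes. In 38 of the 62 both MORC2 KO samples were above both WT samples, where 24.1% of all tested genes had this order, and in 3 (ZNF524, ZNF787 and ZNF584) both were below, where 23.4% of all genes had that order. At an unadjusted p under 0.05, 25 of the 62 were higher and 0 lower in edgeR, against 8.14% and 6.17% of all tested genes. Set against the WT mean, the median log2 ratio was 0.21 in MORC2 KO 1 and 0.20 in MORC2 KO 2, and the median log2 ratio of WT 1 to WT 2 was under 0.01. The summed level of the 62 genes was 1037 and 1046 CPM in the MORC2 KO samples and 924 and 920 CPM in the WT samples. The median ratio was thus close in the lines made with different gRNAs, which were set against the same WT samples. By the sequences in the study's methods, these gRNAs overlap almost fully and target nearly the same site. The lines are therefore not made with unrelated guides. Within the group, ZNF324, with 1637 and 1887 counts against 1610 and 1520, and ZNF17, with 601 and 680 counts against 618 and 544, had log2FC values of 0.01 and -0.02.

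**Figure D2:**
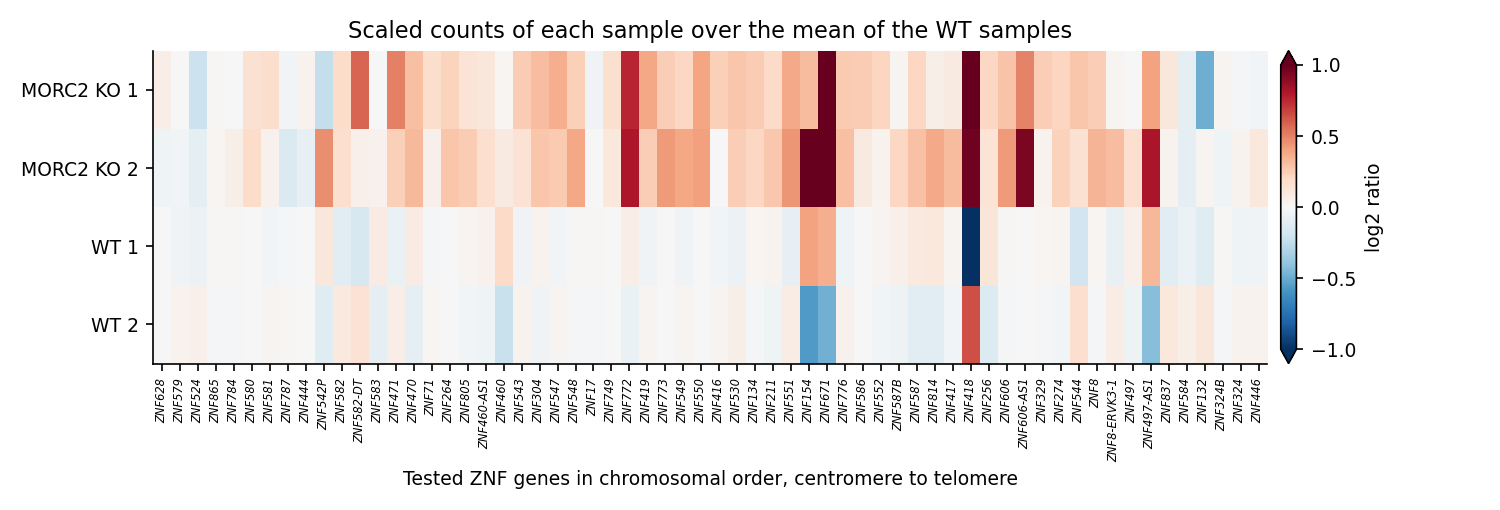
Log2 ratio of the TMM-scaled level in each sample (rows) to the mean of the 2 WT samples, for the 62 tested ZNF genes in chromosomal order (columns), with red above and blue below the WT mean and the colours saturated at 1 and -1. Red prevails in both MORC2 KO rows from ZNF264 to ZNF8, ZNF628 to ZNF444 and ZNF324B to ZNF446 are pale, ZNF772 is dark in both MORC2 KO rows, and ZNF154, ZNF671 and ZNF418, which are dark in at least 1 of them, have few counts and WT samples that also differ.

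The 7 genes that followed the called ones by p were ZNF776, ZNF264, ZNF304, ZNF548, ZNF606, ZNF8 and ZNF274. ZNF776 had 2881 and 3274 counts in MORC2 KO and 2319 and 2208 in WT, a log2FC of 0.28 (SE 0.06, adjusted p = 0.0735 in edgeR). The MORC2 KO samples of ZNF776 lay at 48.9 ± 0.968 CPM (SD, n = 2) and the WT samples at 40.2 ± 1.78 CPM (SD, n = 2), without overlap. At a looser adjusted p of 0.10, ZNF776 was the fourth member called, where 0.882% of all genes were called higher. At 0.05 it was called with library size alone in place of TMM (adjusted p = 0.0411 in edgeR), where 109 genes were called higher in all. It was also called with offsets for GC content and gene length (adjusted p = 0.0347 in edgeR), where 187 were. The main fit called 98 higher. With a sample left out, the log2FC of ZNF776 lay between 0.24 and 0.33. ZNF264, ZNF304, ZNF548, ZNF606 and ZNF8 had log2FC values of 0.25, 0.29, 0.32, 0.36 and 0.29, with adjusted p-values between 0.118 and 0.128 in edgeR and no overlap between the genotypes. ZNF304 is known to recruit a TRIM28-containing corepressor complex, and it had 1308 and 1410 counts in the KO samples against 1074 and 918 in WT.

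ZNF274, which is known to bind the 3′ ends of zinc finger genes and to recruit TRIM28 and SETDB1 there, had 3326 and 3714 counts in MORC2 KO and 2909 and 2506 in WT. Its level was 55.9 ± 0.414 CPM (SD, n = 2) against 48.0 ± 1.28 CPM (SD, n = 2), so that both MORC2 KO samples were higher. The log2FC of 0.22 (SE 0.06) did not pass the threshold (adjusted p = 0.147 in edgeR). The protein has 5 fingers, the fewest of the KRAB members. ZNF8 had 1228 and 1448 counts in the KO samples against 1047 and 907 in WT, and 20.7% of its exonic bases overlap the read-through gene ZNF8-ERVK3-1, whose shared reads were not counted at either gene.

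Several neighbours in the fourth block share part of their sequence. ZNF587 and ZNF417 are paralogues known to repress endogenous retroviruses, and 32.2% of the 65-base stretches of the ZNF417 transcript, a stretch being as long as a read, also occur in ZNF587. For ZNF587 the share with any other gene was 35.8%, of which the larger part was with ZNF814. The command recorded with the counts includes reads that map to several places, while the study's methods speak of default options, which leave them out. Either way the counts of these genes are less certain than those of ZNF772 and ZNF551, which share 0.21% and none of their stretches. ZNF587 had 2637 and 3098 counts in the KO samples against 2435 and 1896 in WT, a log2FC of 0.25 (adjusted p = 0.182 in edgeR). ZNF417, ZNF814 and ZNF587B had log2FC values of 0.21, 0.23 and 0.12 none of which passed the test (adjusted p in edgeR of 0.346, 0.40 and 0.487), and the genotypes overlapped in ZNF814 and ZNF587B. In CPM, MORC2 KO 2 was higher than MORC2 KO 1 in all 4 of these genes.

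By block, the medians ran from -0.05 to 0.22, and no test was made of the differences between blocks. The fourth block had a median log2FC of 0.22 over 46 tested genes, of which 42 were positive and 31 had both MORC2 KO samples above both WT samples. Among all tested genes, 51.5% were positive and 24.1% had this order of samples. The third block had a median of 0.18 over 7 tested genes, all positive. In the first block the median was 0.02 over 7 genes, and in the second ZNF787 and ZNF444 had log2FC values of -0.09 and -0.02. ZNF580 and ZNF581, small genes without KRAB in the first block, had 0.17 and 0.11 (adjusted p = 0.261 and 0.503 in edgeR), and ZNF524 had -0.16. ZNF628, the first gene inside the position limit, was at 0.01, and ZNF331 outside it at 0.18. At the telomeric end of the fourth block the values returned to 0, with -0.10 in ZNF584, -0.20 in ZNF132, -0.01 in ZNF324B, 0.01 in ZNF324 and 0.04 in ZNF446. Of these genes ZNF324B, ZNF324 and ZNF446 share 14.6%, 32.3% and 48.9% of their 65-base stretches with other genes, and ZNF584 and ZNF132 share none. ZNF132 had 119 and 188 counts in MORC2 KO and 153 and 161 in WT, which in CPM were 1.99 and 2.85 against 2.57 and 3.02, so that MORC2 KO 2 lay between the WT samples. Without MORC2 KO 1 its log2FC was 0.01.

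**Figure D3:**
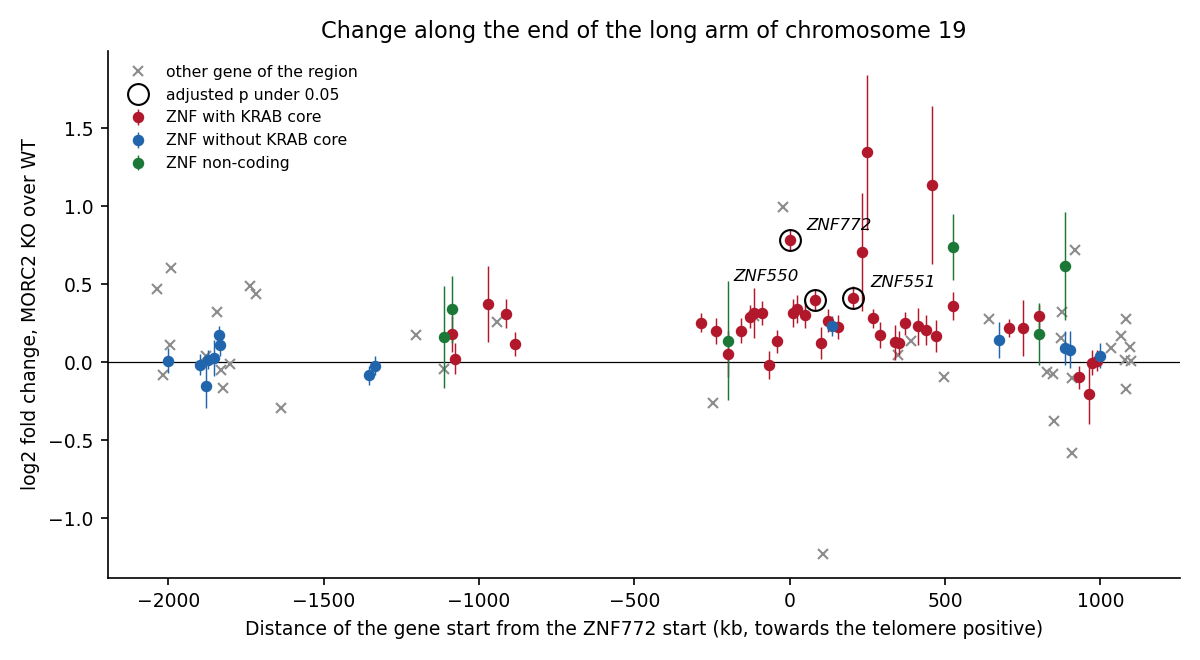
Log2FC of MORC2 KO over WT (vertical axis, whiskers are SEs of the edgeR fit) against the distance of each gene start from the start of ZNF772 in kb, for tested ZNF genes by class (filled circles) and other tested genes of the region (grey crosses). The 3 circled genes passed an adjusted p of 0.05. The ZNF genes around ZNF772 lie mostly between 0.1 and 0.4, those at both ends of the axis lie around 0, and the crosses scatter on both sides of 0.

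Apart from ZNF497-AS1, ZNF606-AS1, ZNF671, ZNF418 and ZNF154, the remaining genes of the fourth block lay between 0.05 and 0.31. These exceptions lay higher, and ZNF606-AS1, ZNF671, ZNF418 and ZNF154 are described below. ZNF497-AS1, a non-coding gene with few counts, had 36 and 53 counts in the KO samples against 34 and 18 in WT. Its log2FC was 0.62 with an SE of 0.35 (adjusted p = 0.433 in edgeR). Between ZNF264 and ZNF304, ZNF805 and ZNF543 both had 0.20, ZNF460-AS1 had 0.14 and ZNF460 0.05, and between ZNF304 and ZNF772, ZNF547 had 0.31 and ZNF749 0.13. ZNF586, ZNF552 and ZNF256 had 0.18, 0.13 and 0.17, and ZNF329 and ZNF544 had 0.14 and 0.22. ZNF837 and ZNF497, near the telomeric end, had 0.08 and 0.09, and 22.9% of the 65-base stretches of ZNF497 occur in other genes, mostly in A1BG-AS1, which overlaps it. In the third block, ZNF470 had 771 and 869 counts in the KO samples against 661 and 525 in WT, a log2FC of 0.31 (adjusted p = 0.183 in edgeR), ZNF471 had 0.37 at a much lower level, and ZNF71 and ZNF583 had 0.11 and 0.02. In the first block, ZNF579, ZNF865 and ZNF784 were at -0.02, 0.02 and 0.03. None of these genes passed the adjusted threshold.

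By protein class, the 42 tested KRAB genes had a median log2FC of 0.23, the 14 tested coding genes without a KRAB core 0.03 and the 6 tested non-coding genes 0.26. All of the 3 calls were KRAB genes. In 30 of the 42 KRAB genes (71.4%) both MORC2 KO samples were above both WT samples, and in 5 of the 14 others (35.7%), against 24.1% of all tested genes. The classes also differ in place and base composition, since 9 of the 14 are the genes of the first 2 blocks and the median GC content of the transcripts was 63.7% in coding genes without a KRAB core and 45.7% in KRAB genes, and the part of each in the difference was not tested. With offsets that remove trends on GC content and gene length, the median of the tested members was 0.19, and with offsets on abundance 0.15. Split by the promoter motif, the 15 KRAB genes with CTACATTA had a median of 0.23 and the 23 tested KRAB genes with a promoter window without it 0.25. Both MORC2 KO samples were above both WT samples in 60% of the former and 73.9% of the latter. The 3 called genes all held the motif, but it was chosen after the promoters had been read. A link between motif and change was not tested. With CCGGAAGT the median was 0.25 over 23 KRAB genes and without it 0.22 over 15.

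Levels per length were compared in WT as CPM per kb of exon. The tested members had a median of 3.01 CPM per kb. The highest were genes of the first 2 blocks and ZNF274, with 24.6 in ZNF444, 20.1 in ZNF581, 18.9 in ZNF580, 17.0 in ZNF274 and 16.0 in ZNF787, all in WT. ZNF772 was at 3.83 in WT and 6.60 in MORC2 KO, ZNF550 at 2.96 and 3.91, and ZNF551 at 4.99 and 6.63 CPM per kb. In WT, ZNF550 was thus just under the median of the group and ZNF772 and ZNF551 were above it.

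At the low end, 6 tested genes stayed under 1 CPM in every sample, which were ZNF542P, ZNF460-AS1, ZNF154, ZNF671, ZNF418 and ZNF497-AS1. ZNF671 and ZNF154, like ZNF582 and ZNF132, are genes whose promoters are often methylated in tumours. ZNF671 had 16 and 27 counts in MORC2 KO and 10 and 5 in WT, a log2FC of 1.35 with an SE of 0.50 (adjusted p = 0.270 in edgeR). ZNF418 had 27 and 25 counts against 5 and 16, with 1.13 and an SE of 0.51 (adjusted p = 0.335 in edgeR). These are the highest values of the group, neither passed the test, and both genes were left out where at least 10 counts in every sample were required. ZNF154 had 33 and 60 counts against 35 and 16, and the genotypes overlapped. ZNF582, at a higher level, had 400 and 436 counts against 325 and 335, a log2FC of 0.18 (adjusted p = 0.495 in edgeR). Its divergent non-coding neighbour ZNF582-DT had 166 and 127 counts against 99 and 109, a log2FC of 0.34 (adjusted p = 0.479 in edgeR). ZNF606-AS1, which overlaps ZNF606 on the other strand, had 109 and 164 counts against 77 and 69, a log2FC of 0.74 (adjusted p = 0.174 in edgeR). The counting did not use strand, so read pairs in the exons that ZNF606 and ZNF606-AS1 share were left out of both counts. In CPM, ZNF671, ZNF154 and ZNF606-AS1 were higher in MORC2 KO 2 than in MORC2 KO 1, and ZNF418 was lower.

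The other 5 members did not pass the filter on low counts and were not tested. ZNF667 had 3 and 2 counts in MORC2 KO and 0 and 0 in WT, and ZNF71-SMIM17 had 2 and 1 against 0 and 0. ZNF835 had 2, 1, 2 and 0 counts. ZNF135 and ZNF667-AS1, a non-coding gene known to be silenced in many tumours, had 0 counts in all 4 samples. No change could be read at these counts.

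The same counts were set beside the ZNF genes elsewhere in the genome. The other 221 ZNF genes on chromosome 19 gave 166 tested genes, of which 4 were called higher, with a median log2FC of 0.16 and 89.2% positive. The 320 ZNF genes on other chromosomes gave 274 tested genes, of which 7 were called higher, with a median of 0.08 and 75.5% positive. Neither group had a gene called lower. The number called higher was 3 of 62 here, 4 of 166 and 7 of 274, where 0.588% of all tested genes were called higher, and no test was made of the differences between the groups. A positive median was therefore shared with the other ZNF genes, and that of the rest of chromosome 19 was close to the median here.

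**Figure D4:**
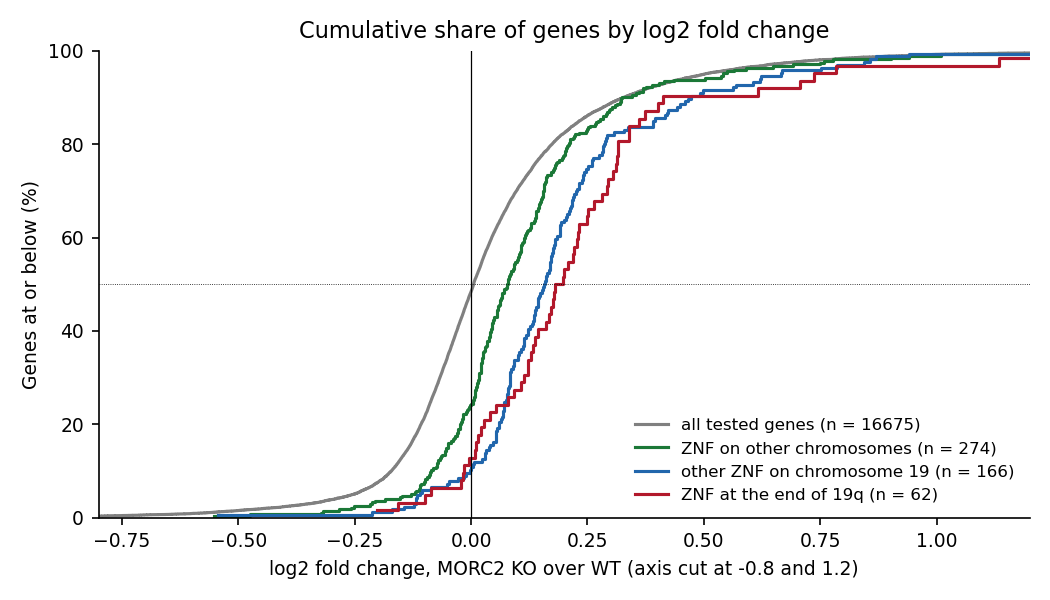
Cumulative percent of genes (vertical axis) at or below each log2FC of MORC2 KO over WT (horizontal axis), for all 16675 tested genes, 274 ZNF genes on other chromosomes, 166 other ZNF genes on chromosome 19 and the 62 tested ZNF genes at the chromosome end. The curve of the 62 genes crosses 50% at 0.19 and that of all tested genes at 0.01, with the other ZNF genes on chromosome 19 close to the 62 and those on other chromosomes between.

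The same end of chromosome 19 holds 68 other genes, of which 39 were tested and 0 were called in edgeR, where 0.618% of all tested genes were called, with 5 higher and 4 lower at an unadjusted p under 0.05 (8.14% and 6.17% of all tested genes). Their median log2FC was 0.04, with 59.0% positive, and 13 had both MORC2 KO samples above both WT samples and 8 had both below (24.1% and 23.4% of all tested genes). The 8 tested zinc finger genes among them that carry other symbols had a median of 0.13, with 5 above and 3 below 0. They ran from -1.23 in ZIK1, a gene with few counts, through -0.08 in ZSCAN22 and -0.04 in ZSCAN5A to 0.26 in ZFP28 and 0.28 in ZSCAN18 (adjusted p = 0.135 in edgeR). VN1R1, an intronless vomeronasal receptor gene just before ZNF772, had 110 and 145 counts in MORC2 KO and 57 and 57 in WT. Its log2FC was 1.00 with an SE of 0.21 (adjusted p = 0.0664 in edgeR), and it is named because its value was seen. U2AF2, an abundant splicing factor gene, was at -0.16.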

How the data were processed

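RNA-seq counts of 2 MORC2 KO and 2 WT samples were analysed. The authors mapped paired reads to CHM13v2.0 by subread 2.0.6 and deposited raw counts of read pairs per RefSeq gene from featureCounts. By the command recorded with the counts, reads with several alignments were counted (the methods speak of default options), strand was not used and read pairs on more than 1 gene were left out. Symbols were matched by Entrez identifier for 28763 of 28775 genes, and 0 columns belonged to other samples.

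Genes were filtered with filterByExpr, scaled by TMM and tested on genotype alone with edgeR 4.0.16 (older quasi-likelihood form, R 4.3.3, adjusted p under 0.05, two-sided) over the whole table. Standard errors are the log2 fold change over the square root of F. The biological coefficient of variation was 5.33%. An exact permutation test of 2 against 2 samples cannot go below p = 0.333 and was not used. Total counts of 53970043 to 64312514 per sample leave the spread between samples as the limit for most genes. The alternatives were DESeq2 1.42.0, other scalings, filters and offsets (loess, span 0.3), a replicate block and leaving out samples. The scripts were tested on simulated data.

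The genes named were the called members, the 10 with the smallest p, the 5 highest and 5 lowest by log2 fold change, the 5 with the highest CPM per kb, and genes given by name. The members, lists and rules were chosen with earlier results of these data known. Members outside this rule, and ZIK1, VN1R1 and the other neighbours, were named after their values were seen. Domains and shared 65-base stretches came from GENCODE 29 transcripts, which 65 of the 67 members had, and promoter windows from RefSeq.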

Additional observations from a re-analysis of the deposited data

How the results depend on the processing

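The direction of ZNF772, ZNF550 and ZNF551 held in all alternatives, and their calls held in every fit on all 4 samples at an adjusted p of 0.05. The crossed replicate numbers were an alternative chosen after seeing the data. The number of members called higher was 3 or 4 with library size alone, RLE scaling, DESeq2, robust dispersions, either offset, the newer edgeR form, at least 10 counts in every sample, an adjusted p under 0.10 and the replicate block. It was 18 without the filter on low counts, 9 with the replicate block and GC content and length offsets together, and between 1 and 21 with a sample left out. No member was called lower in any of these. Over all tested genes, GC content and length offsets called 187 higher and 34 lower, and without the filter 463 were higher and 182 lower. DESeq2 called 17 lower, and an adjusted p under 0.10 gave 15 lower. With a sample left out, the numbers lay between 88 and 1397 higher and between 9 and 2117 lower, both highest without MORC2 KO 1, and the cause was not tested.

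The median log2 fold change of the members was 0.18 with DESeq2, RLE scaling, at least 10 counts in every sample or members with under 1% exonic overlap only. It was 0.23 with library size alone, where the median of all tested genes was 0.05, 0.15 with loess offsets on abundance and 0.20 without the filter, and between 0.18 and 0.20 with a sample left out.

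The replicate numbers only name the samples. Differences between replicates 1 and 2 in MORC2 KO and in WT had a correlation of -0.124 over 16675 genes. The replicate block called 4 members higher, and 237 genes higher and 42 lower in all, and with GC content and length offsets 292 and 77. With the numbers crossed, 19 members were called, and 903 genes higher and 809 lower.

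Genes near 0 changed sign. ZNF628 was at -0.0264 with loess offsets, -0.0534 with GC content and length offsets, with or without the replicate block, and between -0.0569 and 0.0645 with a sample left out. ZNF444 was at 0.0168 and ZNF324B at 0.0343 with library size alone, and with a sample left out they lay between -0.0919 and 0.0347 and between -0.0541 and 0.0320. ZNF324 was at -0.000534 with loess offsets, -0.0153 with GC content and length offsets, -0.0156 with the replicate block as well, and between -0.0311 and 0.0481 with a sample left out. ZNF132 lay between -0.486 and 0.0146 with a sample left out. Few counts limit ZNF671, ZNF418 and ZNF154. MORC2 was below 0 in every alternative in which it was followed, which did not include the crossed replicate numbers.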

Other observations

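A list of 30 genes was measured in the same samples, and all 30 were tested. It mixes cofactors of KRAB zinc finger proteins, ZNF274 and more general heterochromatin genes, such as HUSH complex subunits, UHRF1 and SUV39H1. TASOR, a subunit of the HUSH complex, was called higher, at a log2FC of 0.78 (adjusted p = 1.37e-04 in edgeR), with 12632 and 15590 counts in the KO samples and 7942 and 6728 in WT. No other gene of the list was called, where 0.588% of all tested genes were called higher, 9 of the 30 had a log2FC above 0, against 51.5% of all tested genes, and the list median was -0.04 against 0.01 for all tested genes. TRIM28, the corepressor that binds KRAB, lies at the same end of chromosome 19 and is the most abundant gene of the list, with 50485 and 52583 counts in the KO samples against 50494 and 47687 in WT and a log2FC of -0.09 (adjusted p = 0.565 in edgeR). SETDB1, its partner methyltransferase, was at 0.14 (adjusted p = 0.307 in edgeR), and CHD4, a remodeller of the NuRD complex, at -0.17 (adjusted p = 0.271 in edgeR).

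The zinc finger gene ZIK1, between ZNF416 and ZNF530, had 7 and 9 counts in the KO samples against 21 and 13 in WT, a log2FC of -1.23 with an SE of 0.49 (adjusted p = 0.295 in edgeR), where its neighbours on either side were at 0.12 and 0.26. ZIK1 was picked for its value.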
